A study of Mus musculus with 6 samples.

Results

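The 9 genes described here encode the enzymes that write methyl groups on DNA (Dnmt1, Dnmt3a and Dnmt3b), the partner that guides Dnmt1 (Uhrf1), the enzymes that begin their removal (Tet1, Tet2 and Tet3) and 2 proteins that bind methylated DNA (Mbd1 and Mbd2). They were taken by symbol, and every probe set annotated to 1 of these symbols alone was kept. This gave 9 of 18193 genes and 26 of the 45037 probe sets on the array. RNA was measured in CD71+Ter119+ erythroid progenitors sorted from the bone marrow of 6-week old female mice. The knockout group held 3 mice that were Bcl11a fl/fl EpoR-Cre+, in which Cre recombinase is driven by the erythropoietin receptor gene and removes Bcl11a in the red cell lineage. The control group held 3 Bcl11a +/+ mice, for which the labels name no Cre. Loss of Bcl11a therefore cannot be told apart from the presence of Cre in this design. Each mouse gave 1 Affymetrix array, and the labels number the mice as separate animals.

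Methylation of cytosine in CpG dinucleotides is copied after DNA replication, when Uhrf1 binds the hemimethylated daughter DNA and brings Dnmt1 to it. Dnmt3a and Dnmt3b set new methylation, Tet enzymes oxidise methylated cytosine, and methyl-CpG binding proteins recruit corepressors to methylated DNA. In red cell development the genome loses methylation as cells divide, and silencing of the embryonic and fetal globin genes is known to involve DNA methylation beside BCL11A.

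No member changed past the test threshold in the knockout. With limma, 0 of the 26 probe sets had an adjusted p under 0.05, against 0.147% of all probe sets. At an unadjusted p under 0.05 there were 6, all lower in the knockout and 4 of them probe sets of Dnmt3a. That is 23.1% of the member probe sets, against 5.21% of all probe sets for lower values, while 0 were higher, against 7.21% of all probe sets. The count of 6 depended on the processing and ranged from 2 to 7 under the other settings given below. The 3 knockout values all lay below the 3 control values in 7 of the 26 (26.9%), against 8.91% of all probe sets, and in none did they all lie above, against 10.6%. Of those 7, again 4 read Dnmt3a, so they are readings of a single gene, and without Dnmt3a the count was 3 of 21 (14.3%). A two-sided exact permutation test gives p = 0.1 for any probe set without overlap, the lower limit of a design with 3 mice a side. It therefore adds nothing for these 7. The count of 7 also depended on scaling, with 9 after quantile normalization and 6 after median centring. Over all probe sets the same count was 4011, with 4940 after quantile normalization and 3361 after median centring. The median log2 difference over the 26 probe sets was -0.13 and 19 were below 0, beside a median of -0.01 over all 45037, of which 51.1% were below 0. All differences are knockout minus control on the scale of log2(intensity + 16), which understates the change of dim probe sets. In sorted bulk RNA, fewer cells of a type and less RNA per cell cannot be told apart.

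**Figure D1:**
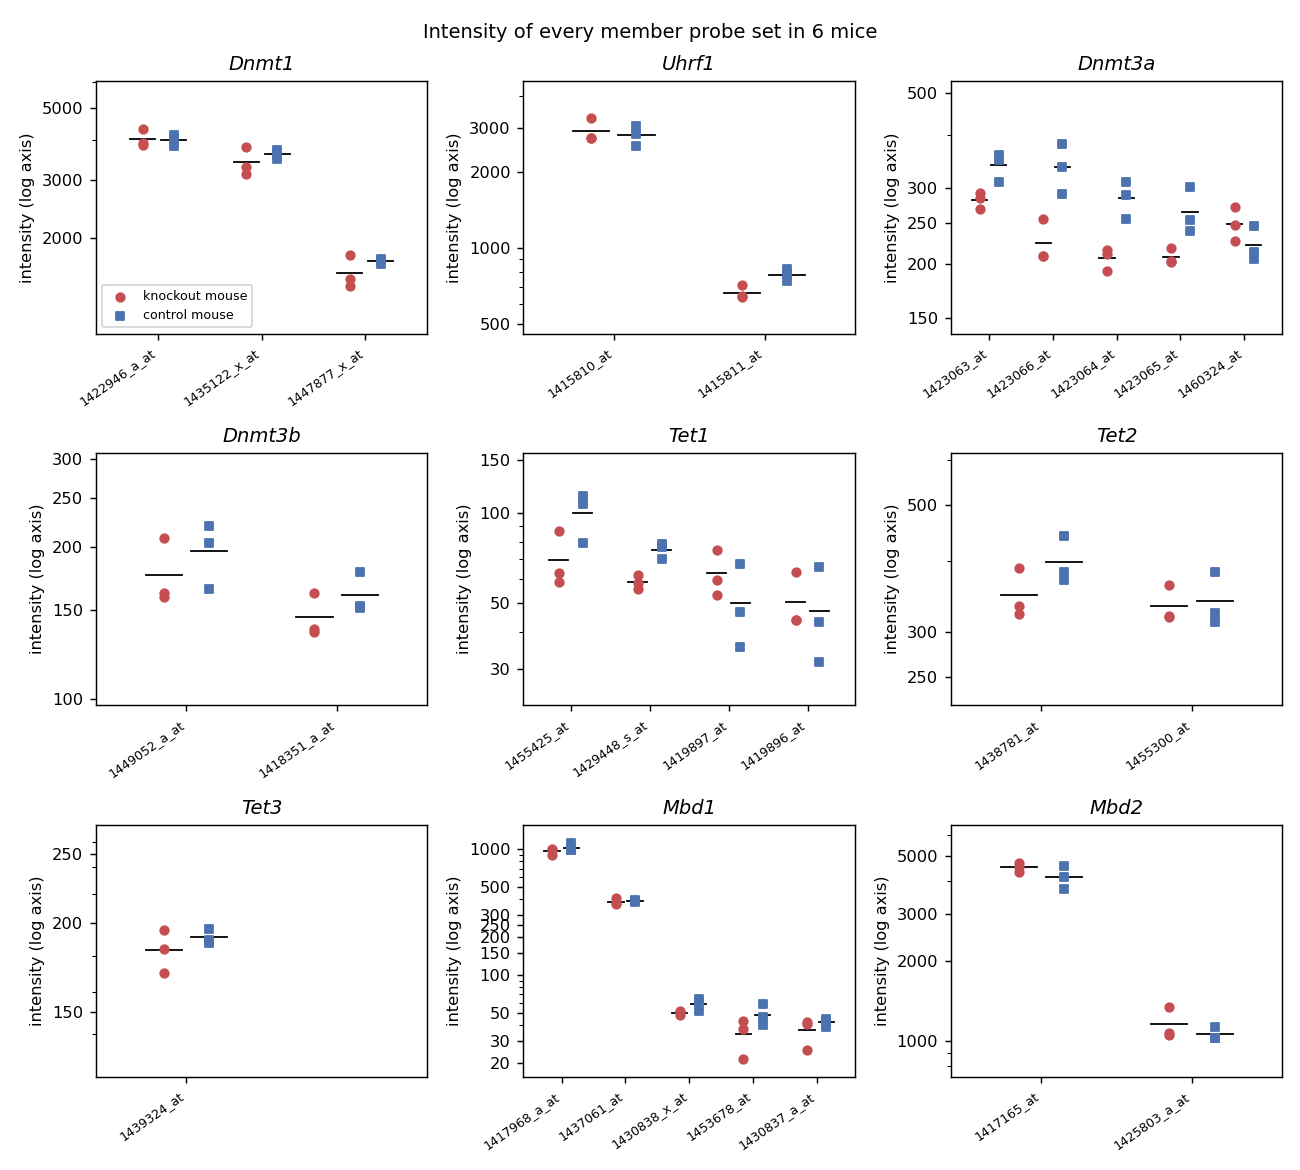
Intensity (log axis) of each of the 26 member probe sets, 1 panel per gene, in 3 knockout mice (circles, left) and 3 control mice (squares, right); black lines are group means. In 4 of the 5 Dnmt3a probe sets every knockout value lies below every control value, while the Dnmt1 groups overlap in all 3 probe sets.

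**Figure D2:**
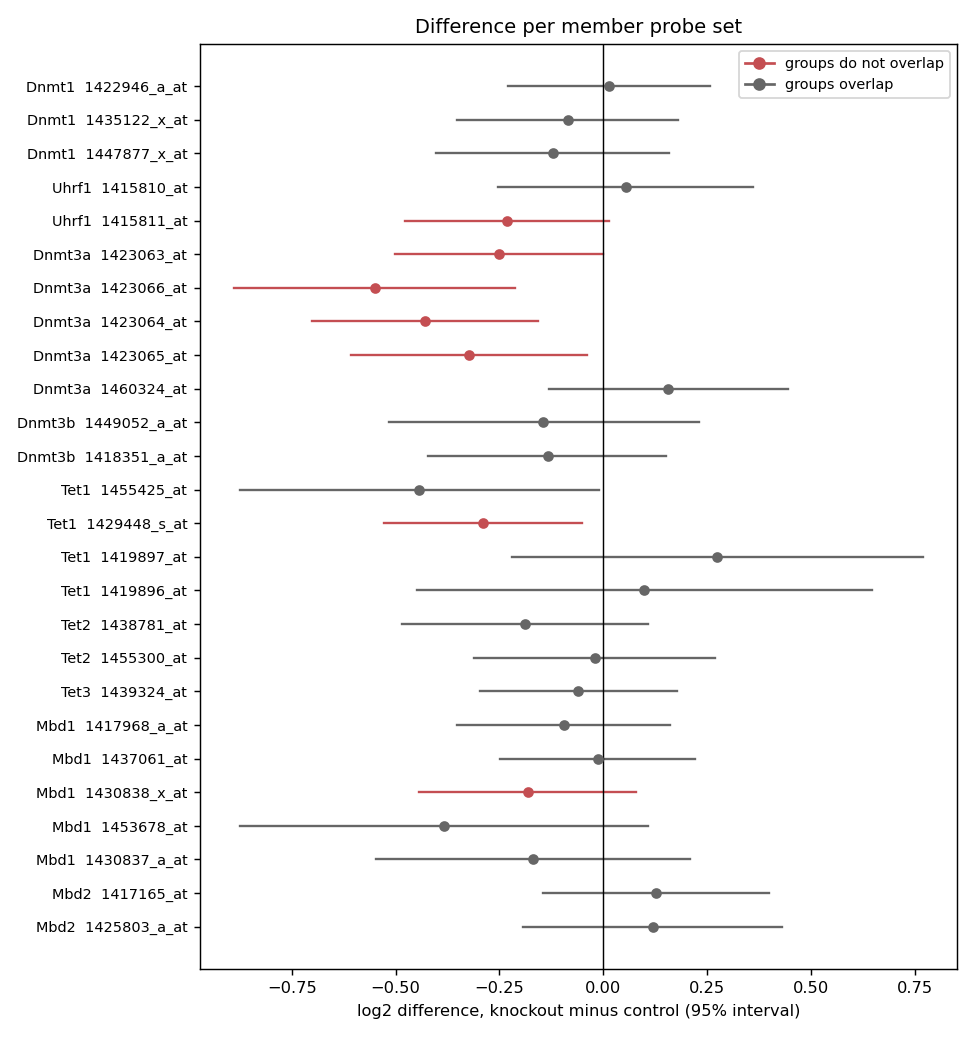
Log2 difference (knockout minus control) with its 95% interval for the 26 member probe sets, in red where the 3 knockout and 3 control values do not overlap. The differences run from -0.55 in a Dnmt3a probe set to 0.28 in a Tet1 probe set, and none passed the adjusted threshold.

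The array medians lay close to each other, at intensities of 67.6 to 68.4 in knockout mice and 67.5 to 70.9 in control mice. Medians say little of bright probe sets. Quantile normalization moved the log2 difference of Dnmt1 1422946_a_at from 0.014 to -0.11 and that of Mbd2 1417165_at from 0.127 to -0.003. That of the dimmer Dnmt3a 1423066_at moved only from -0.55 to -0.549. The targeted gene was read by 7 probe sets, and that with the highest intensity, 1456632_at, had 1286, 1419 and 1190 in knockout mice against 1475, 1553 and 1450 in control mice, a log2 difference of -0.20 ± 0.11 (SE, n = 3 per group, adjusted p = 0.502). The others ranged from -0.40 to 0.32, of which 4 were below 0 and 2 above. Whether they lie inside or outside the deletion was not known here, so these values do not check the genotype. Erythroid markers were present, with Tfrc, which encodes CD71, at 16867, 19294 and 19472 in knockout mice and 15720, 12855 and 14289 in control mice. Neutrophil markers were bright as well. S100a8, a neutrophil calcium-binding protein, gave the highest value on all 6 arrays, at 38113 to 39377 in knockout mice and 39661 to 40360 in control mice, and the part of other cells in the sorted fraction was not tested.

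Dnmt1 copies methylation onto newly made DNA. Its 1422946_a_at probe set had intensities of 3846, 3915 and 4317 in knockout mice and 4005, 3810 and 4138 in control mice. The groups overlapped, and the log2 difference of 0.01 ± 0.10 (SE, n = 3 per group, adjusted p = 0.972) had a 95% interval from -0.23 to 0.26. The second, 1435122_x_at, had 3144, 3294 and 3785 in knockout mice against 3633, 3486 and 3704 in control mice. The third, 1447877_x_at, had 1493, 1426 and 1772 in knockout mice against 1710, 1658 and 1721 in control mice. Their differences were -0.09 and -0.12, and both overlapped between the groups. In all 3 probe sets knockout mouse 3 was the highest of the knockout mice.

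Uhrf1 recognises hemimethylated DNA and is needed for Dnmt1 to act there. Its 1415810_at probe set had 2738, 2734 and 3286 in knockout mice and 2838, 2538 and 3052 in control mice, a log2 difference of 0.05 ± 0.13 (SE, n = 3 per group, adjusted p = 0.904). The other, 1415811_at, had 640, 643 and 711 in knockout mice against 741, 785 and 823 in control mice, a log2 difference of -0.23 ± 0.10 (adjusted p = 0.426). Here all knockout values lay below all control values, so the 2 probe sets of Uhrf1 did not give the same picture. After quantile normalization the differences of 1422946_a_at (-0.11) and 1415810_at (-0.04) were below 0, so the direction of these 2 depended on scaling. The other 3 Dnmt1 and Uhrf1 probe sets were below 0 with and without it.

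Both genes are known as genes of S phase, when DNA is replicated, and knockout mouse 3 stood highest for them within its group. It had the highest value of the 3 knockout mice in 5 of 5 Dnmt1 and Uhrf1 probe sets and in 16 of 16 S-phase genes, a list that included subunits of the MCM helicase and of ribonucleotide reductase. Over all genes that mouse was the highest in 34.1%, and among genes whose intensity lay in the upper 25% of probe sets in 38.0%. The median log2 excess of knockout mouse 3 over the mean of the other two was 0.23 for the Dnmt1 and Uhrf1 probe sets and 0.23 for the S-phase genes, against 0 over all genes. The counts of 5 of 5 and 16 of 16 were the same after quantile normalization. The trait was not particular to Dnmt1 and Uhrf1: knockout mouse 3 was the highest knockout mouse in 13 of the 26 member probe sets, among them both of Mbd2 and that of Tet3. It was also the highest in 7 of 8 erythroid, 6 of 7 megakaryocyte and 6 of 9 neutrophil markers, in 1 of 8 macrophage markers, and in 0 of 8 stem and progenitor, 0 of 8 pre-B and 0 of 4 basophil and mast cell markers. After quantile normalization it was the highest in 6 of 8 erythroid and 3 of 9 neutrophil markers. The part of these cells in the pattern was not tested. The pattern was noticed in the data and is given as a description.

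Between the groups, all 16 S-phase genes had log2 differences above 0, with a median of 0.15, although 0 passed the limma threshold and 4 had an unadjusted p under 0.05 (12.7% of all genes did in either direction). After quantile normalization 9 of the 16 were above 0, with a median of 0.05. Ccne2, cyclin E2, which drives entry into S phase, had 2811, 3025 and 3784 in knockout mice against 2319, 1929 and 1970 in control mice, a difference of 0.62 ± 0.15 (adjusted p = 0.217). Ccne1, the related cyclin E1, had a difference of 0.46 ± 0.14 (adjusted p = 0.279). Both cyclins stood higher in every knockout mouse than in any control mouse. They were among 5 of the 16 S-phase genes with no overlap, against 2245 of all 18193 genes that were higher without overlap. The count was 3 of 16 after quantile normalization and 7 of 16 after median centring. The remaining S-phase genes, such as Mcm7 and Prim1, overlapped between the groups, and so did Dnmt1.

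**Figure D3:**
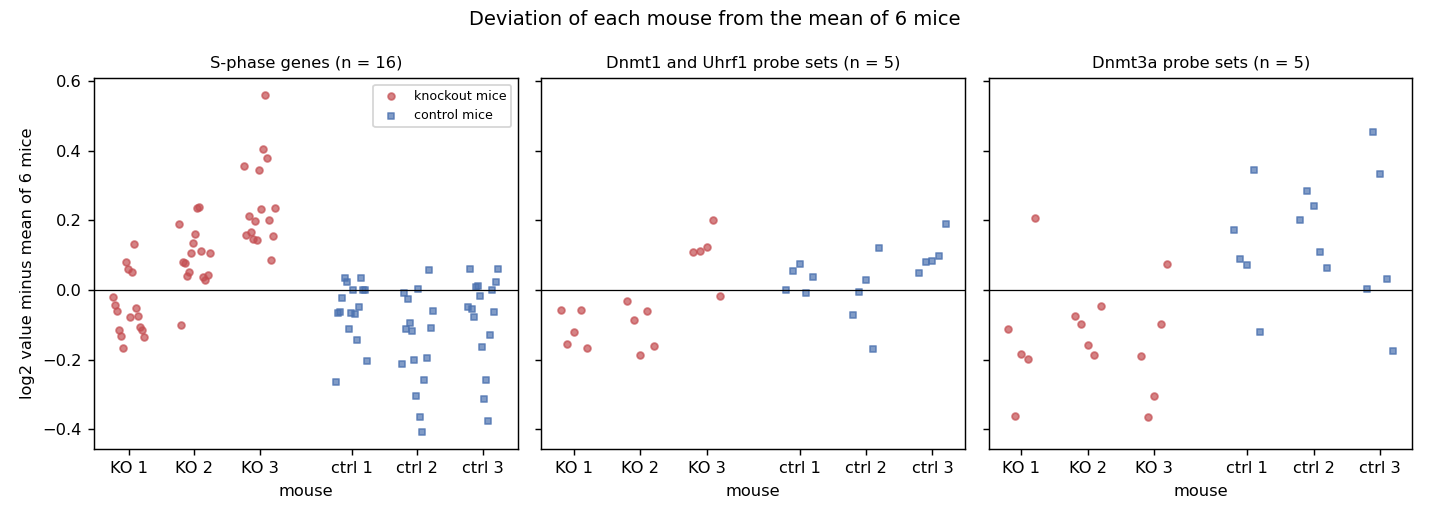
Log2 value minus the mean of 6 mice, per mouse (KO, knockout, left; ctrl, control, right), for 16 S-phase genes, 5 Dnmt1 and Uhrf1 probe sets and 5 Dnmt3a probe sets; each point is a gene or probe set. Knockout mouse 3 is the highest knockout mouse for every point of the left and middle panels, and in 1 of 5 Dnmt3a probe sets.

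The promoters of Dnmt1 and Uhrf1 are shown because these members are known as S-phase genes and all their probe sets were highest in knockout mouse 3 among the knockout mice. Each sequence is a 300-base window, from 250 bases before to 50 after a transcription start, from RefSeq on build GRCm38.p6, printed 5′ to 3′ on the gene's strand. Of the 9 genes, 7 had an entry in the RefSeq promoter table. RefSeq gives 3 starts for Dnmt1 and 2 for Uhrf1, and the window with the most CpG is printed for each, chr9:20952574-20952873 (minus strand) for Dnmt1 and chr17:56304063-56304362 (plus strand) for Uhrf1. Capitals mark TTTCGCGC or, on the other strand, GCGCGAAA, a form of the binding motif of the E2F factors that drive S-phase genes.
Dnmt1: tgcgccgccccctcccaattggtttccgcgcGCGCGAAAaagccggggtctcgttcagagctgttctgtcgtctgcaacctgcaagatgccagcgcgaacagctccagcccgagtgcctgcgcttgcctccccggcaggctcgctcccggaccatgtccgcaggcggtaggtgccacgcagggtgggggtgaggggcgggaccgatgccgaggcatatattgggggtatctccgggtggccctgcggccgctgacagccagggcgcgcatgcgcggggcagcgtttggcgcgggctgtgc
Uhrf1: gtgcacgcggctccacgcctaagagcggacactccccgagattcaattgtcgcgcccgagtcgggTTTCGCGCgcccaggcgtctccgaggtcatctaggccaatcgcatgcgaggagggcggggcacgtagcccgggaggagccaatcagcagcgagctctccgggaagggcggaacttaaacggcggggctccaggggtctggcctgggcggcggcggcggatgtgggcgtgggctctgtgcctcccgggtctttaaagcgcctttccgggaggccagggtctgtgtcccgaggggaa
Each window held the motif once and held 33 CpG. Of all 32851 promoter windows of this length 0.323% held it, of those with at least 20 CpG 0.816%, and of the 14 windows of S-phase genes 3 did (21.4%). The motif was chosen after these sequences were seen, a match is no sign of binding, and none of the other printed or matched windows of the members held it.

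Dnmt3a sets new methylation and is known for its part in blood stem and progenitor cells. It was read by 5 probe sets. The one with the smallest p, 1423066_at, had intensities of 209, 255 and 209 in knockout mice against 292, 336 and 380 in control mice, a log2 difference of -0.55 ± 0.14 (SE, n = 3 per group, adjusted p = 0.228) with a 95% interval from -0.89 to -0.21. The 1423064_at probe set had 212, 216 and 193 in knockout mice against 255, 289 and 310 in control mice, a difference of -0.43 ± 0.11 (adjusted p = 0.236). In both, every knockout mouse lay below every control mouse.

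The 1423065_at probe set of Dnmt3a had 202, 204 and 218 in knockout mice against 302, 254 and 240 in control mice, a log2 difference of -0.32 ± 0.12 (adjusted p = 0.354). The 1423063_at probe set had 285, 293 and 269 in knockout mice against 350, 358 and 310 in control mice, a difference of -0.25 ± 0.10 (adjusted p = 0.402). Neither overlapped between the groups. The fifth, 1460324_at, went the other way, with 272, 226 and 247 in knockout mice against 214, 245 and 205 in control mice, a difference of 0.16 ± 0.12 (adjusted p = 0.644), and its groups overlapped. The array annotation gives the same accession for all 5, and the place of each on the transcript was not known here. The mean of the 5 probe sets had a difference of -0.28 ± 0.08 (adjusted p = 0.232 over 18193 genes). Of the 5, only 1423066_at passed under any alternative tried, with an intensity trend and robust moderation of the variances (adjusted p = 0.0346), a fit that called 3.21% of all probe sets and 0.531% as lower.

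RefSeq gives 3 starts for Dnmt3a, of which 2 lie close together upstream and 1 lies downstream, where a shorter form of the protein is known to begin. An upstream and the downstream window are shown to compare how rich they are in CpG, the site that these enzymes methylate. They are chr12:3806730-3807029 and chr12:3891494-3891793 (plus strand, GRCm38.p6), and capitals mark every CpG.
Dnmt3a upstream: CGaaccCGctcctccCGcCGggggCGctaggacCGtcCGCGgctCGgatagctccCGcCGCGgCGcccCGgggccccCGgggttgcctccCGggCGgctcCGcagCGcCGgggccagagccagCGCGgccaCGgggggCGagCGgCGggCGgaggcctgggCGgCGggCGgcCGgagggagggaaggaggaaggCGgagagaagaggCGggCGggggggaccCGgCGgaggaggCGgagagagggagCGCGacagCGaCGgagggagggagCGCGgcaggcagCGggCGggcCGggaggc
Dnmt3a downstream: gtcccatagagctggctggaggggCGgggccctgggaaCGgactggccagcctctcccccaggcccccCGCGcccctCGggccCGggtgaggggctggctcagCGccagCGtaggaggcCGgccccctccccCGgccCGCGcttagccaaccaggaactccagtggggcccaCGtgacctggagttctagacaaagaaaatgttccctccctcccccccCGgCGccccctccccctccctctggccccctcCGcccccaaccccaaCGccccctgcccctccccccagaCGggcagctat
The upstream window held 46 CpG, and 98.4% of all promoter windows held fewer. The downstream window held 18, and 70.3% held fewer. Which start the measured RNA came from cannot be read from these probe sets.

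Some lists of blood cell markers were lower beside Dnmt3a, although none of their genes passed the limma threshold. All 8 stem and progenitor markers had log2 differences below 0, with a median of -0.29, and their summed intensity was 6805 to 8572 in knockout mice against 10304 to 10433 in control mice. Among them Cd34, a stem cell surface antigen, had 211, 143 and 137 in knockout mice against 197, 250 and 264 in control mice, a log2 difference of -0.51 ± 0.19 (adjusted p = 0.368). Myb made up the largest part of the stem and progenitor sum, with mean intensities of 4208 in knockout mice and 5595 in control mice. Whether the genes of this list were read from the erythroid cells or from others was not tested. All 8 measured pre-B cell markers were below 0 as well, with a median of -0.37 and summed intensities of 10809 to 14762 in knockout mice against 15380 to 18086 in control mice. Igll1, a component of the pre-B cell receptor, had 994, 595 and 593 in knockout mice against 1528, 2091 and 1730 in control mice, a difference of -1.31 ± 0.23 (adjusted p = 0.136). Over all genes 50.2% were below 0. Of these 16 markers, by their brightest probe sets, 6 were lower at an unadjusted p under 0.05, against 4.53% of all genes. None of these probe sets was at 0, the lowest intensity being 83.4. The 4 basophil and mast cell markers were also below 0, with a median of -0.35. Neutrophil markers were below 0 in 8 of 9, with a median of -0.09, and in 6 of 9 the knockout values all lay below the control values (66.7%, against 9.23% of all genes). That count depended on scaling, with 5 of 9 after quantile normalization and 2 of 9 after median centring. Macrophage markers were above 0 in 5 of 8, with a median of 0.04 (3 of 8 and -0.01 after quantile normalization), and megakaryocyte markers in 4 of 7, with a median of 0.19. Erythroid markers were above 0 in 6 of 8, and their sums were 80371 to 87376 in knockout mice against 64404 to 77600 in control mice. Among those above 0, Hba-a1 had intensities of only 9.52 to 21.8, where signal and background cannot be separated. The part of each of these cell types in the Dnmt3a values was not tested.

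The genes whose pattern over the 6 arrays was most like that of Dnmt3a 1423066_at, by Pearson's r of log2 values, were Vpreb3 (r = 0.99), a pre-B cell receptor gene, Zfp810 (r = 0.99), a zinc finger gene, and Unc93b1 (r = 0.99), a trafficking protein of Toll-like receptors. Of the 4645 genes compared, 45 had an r over 0.95, and all share the same 6 arrays and 2 groups. Vpreb3 itself had a log2 difference of -0.56 (adjusted p = 0.259).

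Dnmt3b, the second enzyme that sets new methylation, was read by 2 probe sets. The 1449052_a_at probe set had 208, 162 and 159 in knockout mice against 165, 204 and 220 in control mice, a log2 difference of -0.14 ± 0.16 (adjusted p = 0.757). The other, 1418351_a_at, had 162, 136 and 138 in knockout mice against 153, 179 and 152 in control mice, a difference of -0.13 ± 0.12 (adjusted p = 0.696). In each, knockout mouse 1 reached into the range of the control mice and the other two knockout mice lay below it.

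Tet1 was read by 4 probe sets that lay near the array medians, between the 43.5 and 53.8 percentiles of all probe sets, where no detection calls tell signal from background. The 1455425_at probe set had 86.9, 63.0 and 58.4 in knockout mice against 79.4, 107 and 113 in control mice, a log2 difference of -0.44 ± 0.18 (adjusted p = 0.392). The 1429448_s_at probe set had 55.5, 58.0 and 61.8 in knockout mice against 69.8, 78.7 and 76.7 in control mice, a difference of -0.29 ± 0.10 (adjusted p = 0.327), with no overlap. The other 2 had differences of 0.28 and 0.10 and overlapped, so the probe sets of Tet1 disagreed in sign.

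Tet2, which is often mutated in human blood disorders, had in its 1438781_at probe set 333, 388 and 322 in knockout mice against 382, 442 and 370 in control mice, a log2 difference of -0.19 ± 0.12 (adjusted p = 0.580). Its other probe set, 1455300_at, had 319, 362 and 318 in knockout mice against 382, 323 and 312 in control mice, a difference of -0.02 ± 0.12 (adjusted p = 0.964). Knockout mouse 2 was the highest knockout mouse in both, and the groups overlapped. Tet3, the third enzyme of the family, had 184, 170 and 196 in knockout mice against 190, 188 and 197 in control mice in its only probe set, 1439324_at, a difference of -0.06 ± 0.10 (adjusted p = 0.857, 95% interval from -0.30 to 0.18).

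Mbd1, which binds methylated DNA and recruits histone methyltransferases, was read by 5 probe sets, all with log2 differences below 0, from -0.38 to -0.01. The 1417968_a_at probe set had 977, 997 and 905 in knockout mice against 1120, 982 and 980 in control mice, a difference of -0.10 ± 0.11 (adjusted p = 0.765). The 1437061_at probe set had 373, 367 and 411 in knockout mice against 398, 378 and 384 in control mice, a difference of -0.01 ± 0.10, which was 0.006 after median centring. The other 3 were dim, with group means between 33.8 and 58.9, and in 1 of them, 1430838_x_at, the knockout values of 47.6, 50.8 and 51.3 lay just below the control values of 60.9, 64.4 and 51.5.

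Mbd2 brings the NuRD corepressor to methylated DNA and is known from mice to take part in silencing of globin genes. Its 1417165_at probe set had 4338, 4532 and 4679 in knockout mice against 4560, 3733 and 4149 in control mice, a log2 difference of 0.13 ± 0.11 (adjusted p = 0.698). The 1425803_a_at probe set had 1072, 1049 and 1339 in knockout mice against 1125, 1022 and 1019 in control mice, a difference of 0.12 ± 0.13 (adjusted p = 0.758). Both groups overlapped, and Mbd2 was the member with every probe set above 0, although the first was at -0.003 after quantile normalization.

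The wider pathway was read by 4 lists of partner genes and 1 of target genes, which together had 82 probe sets, of which 0 passed the limma threshold and 20 had an unadjusted p under 0.05 (24.4%, against 12.4% of all probe sets). Several of the 20 were readings of the same gene, such as Usp7 and Hells. Counts below are by the brightest probe set of each gene. By that count, an unadjusted p under 0.05 was found in 2 of 10 genes listed as maintenance partners (1 higher, 1 lower). The same held for 6 of 10 demethylation partners (3 higher, 3 lower). An unadjusted p under 0.05 was found in 0 of 6 other methyl-CpG readers and proteins of their families. It was found in 1 of 8 methyl donor genes and 1 of 11 germline genes, against 12.7% of all genes. Of the 10 genes listed as partners of maintenance methylation, 4 were above 0 and 6 below, with a median log2 difference of -0.04. Among them Zfp57, Dnmt3l and Dppa3 were dim, with group means from 1.85 to 38.0, where the sign of a difference says little. Usp7, a deubiquitinase that stabilises Uhrf1 and Dnmt1, had 7264, 7901 and 8565 in knockout mice against 6589, 5281 and 6003 in control mice, a difference of 0.41 ± 0.13 (adjusted p = 0.295). Hells, a chromatin remodeller needed for methylation of repeats, had 867, 748 and 723 in knockout mice against 874, 1133 and 1099 in control mice, a difference of -0.40 ± 0.14 (adjusted p = 0.345). Neither overlapped between the groups, and they differed in opposite directions.

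Of the 10 measured demethylation partners, 4 were above 0 and 6 below, with a median of -0.11. Cxxc4, 1 of the 3 that were higher at an unadjusted p under 0.05, was dim, with group means of 47.7 and 31.5, and overlapped. The other Cxxc4 probe sets were at -0.41 and -0.08, so they disagreed with it in sign. Gadd45a, a stress-response protein linked to active demethylation, had 7706, 7343 and 7502 in knockout mice against 4723, 4639 and 5061 in control mice, a log2 difference of 0.64 ± 0.09 (adjusted p = 0.0930). All 3 knockout values lay well above the control values, and among the genes of the pathway lists this was the difference with the smallest p. It passed the threshold with a pseudocount of 64 (adjusted p = 0.00894), among the brighter 50% alone (adjusted p = 0.00887) and with an intensity trend and robust moderation (adjusted p = 6.72e-05), and its adjusted p was 0.190 to 0.431 with a mouse left out or with the replicate number as a block. Its relative Gadd45g had 173, 190 and 185 in knockout mice against 239, 255 and 247 in control mice, a difference of -0.41 ± 0.10 (adjusted p = 0.209), which passed among the brighter 50% alone (adjusted p = 0.0390).

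Of the list of other methyl-CpG readers and proteins of their families, 6 were measured, with a median log2 difference of -0.03. Not all of these are known to bind methylated DNA themselves. Zbtb38, a zinc finger protein that binds methylated DNA, had a difference of 0.27 ± 0.16 (adjusted p = 0.558). Mbd3, a subunit of NuRD listed here by its family, had one of -0.21 ± 0.15 (adjusted p = 0.607). Both overlapped between the groups. The other probe sets of Zbtb38 were at -0.14 and -0.39, so its probe sets disagreed in sign. The 8 measured genes of the methyl donor cycle had a median of 0.02, and among them Gnmt and Mat1a were dim, with group means from 2.41 to 13.3. Ahcy, which clears the product of the methyltransferase reaction, had a difference of -0.29 ± 0.11 (adjusted p = 0.354), and Mtr, methionine synthase, one of 0.24 ± 0.12 (adjusted p = 0.460). The other Mtr probe set was at -0.11.

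Germline genes known to be silenced by promoter methylation in somatic cells gave a view of its targets. Of the 11 measured, 0 passed and 1 had an unadjusted p under 0.05, while 9 were above 0 and 2 below, with a median log2 difference of 0.08. Their group means lay below the array medians, except for Asz1 at 113 in knockout mice and 110 in control mice. Taf7l, a germ cell form of a transcription initiation factor, had 13.5, 17.8 and 29.6 in knockout mice against 8.01, 12.8 and 9.83 in control mice, a difference of 0.45 ± 0.18 (adjusted p = 0.391). Dazl, an RNA-binding protein of germ cells, had 38.9, 31.3 and 42.2 in knockout mice against 47.7, 43.4 and 50.2 in control mice, a difference of -0.24 ± 0.12 (adjusted p = 0.469). At these intensities a small difference cannot be told from background.

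**Figure D4:**
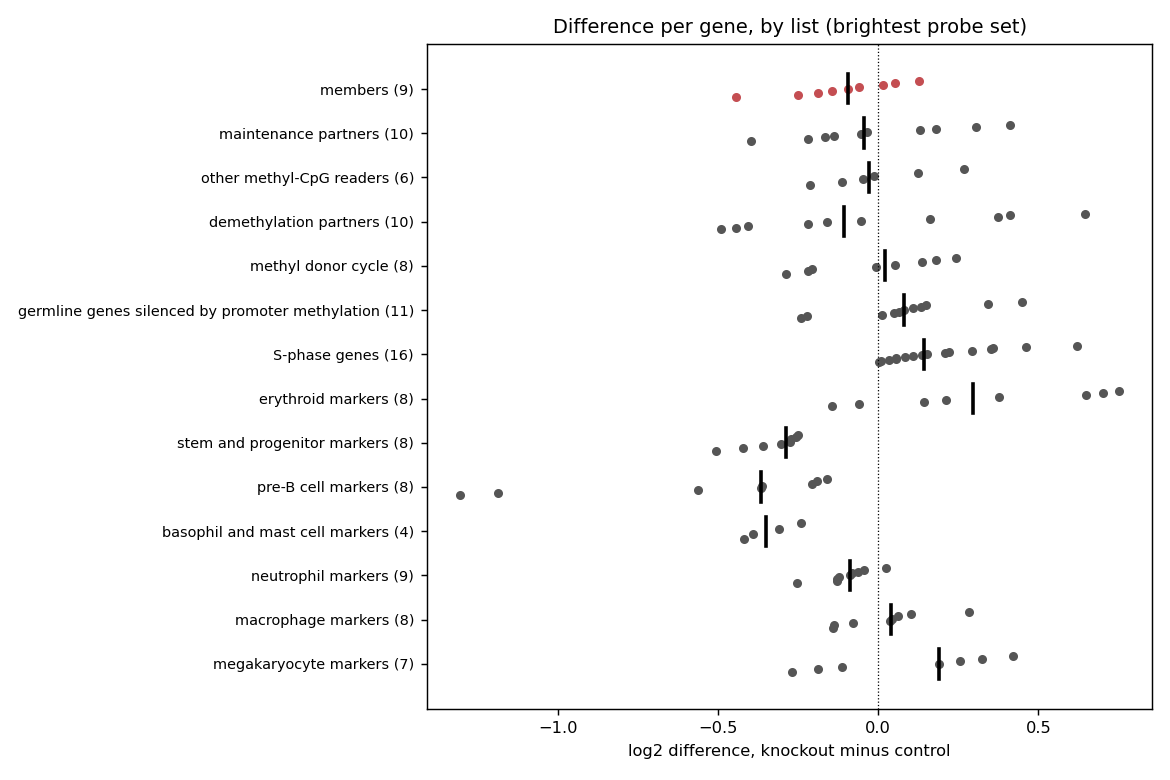
Log2 difference (knockout minus control) of the brightest probe set of each gene, by list, with the number of genes in brackets and the list median as a black bar; members are in red. Members and their partner lists have medians between -0.11 and 0.02, while all stem and progenitor, pre-B, and basophil and mast cell markers lie below 0.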

How the data were processed

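RNA from sorted cells of 6 mice was hybridised to Affymetrix arrays, per the labels' protocols. What the authors deposited is a linear intensity per probe set and mouse, without detection calls, and the software and scaling behind it are not stated in the labels. The array annotation named 1 gene for 34945 of 45037 probe sets, several for 932 and none for 9160, and 34741 matched RefSeq (GRCm38.p6).

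Values were taken as log2(intensity + 16), with no further normalization, since array medians lay within 0.057 and interquartile ranges within 0.07 log2 units. The fit was limma (version 3.58.1, R 4.3.3) on all probe sets, with lmFit and eBayes without a trend. A run on simulated data with normal noise checked only that an added difference was returned at its size. P-values are two-sided, adjusted by the Benjamini-Hochberg method over the whole table, with a threshold of 0.05. The number of arrays limits precision.

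Lists are counted by the brightest probe set of each gene. All member probe sets were eligible to be named, and of each pathway list the 2 genes with the smallest p, since none passed. The 3 genes most like the member with the smallest p were sought among brighter, variable genes. Members and lists were chosen with earlier results of these data known, and the cell markers given by name were chosen after their values were seen. Protein sequences were not used here.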

Additional observations from a re-analysis of the deposited data

How the results depend on the processing

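The fit was repeated with other scalings (quantile, median centring), other pseudocounts (1, 64), only the brighter 50% of probe sets (20 of the 26 members' own), a variance trend with robust moderation, weights per array, the replicate number as a block, probe sets averaged per gene, and each mouse left out. The count of member probe sets past the threshold was 0 under each except the trend with robust moderation, where it was 1, and the count of the 9 members by their brightest probe set was 0 under each. At an unadjusted p under 0.05 there were 4 member probe sets with median centring and 4 with a pseudocount of 1. There were 7 with a pseudocount of 64, 2 with the replicate block and 2 to 5 on leaving out a mouse. Quantile normalization, the brighter 50%, the trend and array weights gave 6, as in the main fit. The wider pathway lists had 0 calls, but 2 with a pseudocount of 64, 4 among the brighter 50% and 11 with the trend. Over all probe sets 66 passed, against 38 with a pseudocount of 1, 558 with 64, 853 among the brighter 50%, 1445 with the trend, 14 with the replicate block and 27 to 41 on leaving out a mouse. Leaving out a mouse gave 0 calls in the members and 0 in the pathway lists. The block changed no call of a member or pathway gene. Whether same-numbered mice were paired was not known here. The deviations of each such pair from their group means correlated at -0.035, -0.015 and -0.04 over all probe sets. Values taken over all probe sets cannot exclude a link in some genes.

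Some differences near 0 changed sign. Quantile normalization gave -0.11 for Dnmt1 1422946_a_at, -0.044 for Uhrf1 1415810_at and -0.003 for Mbd2 1417165_at. Array weights gave -0.005 for that Dnmt1 probe set and 0.019 for Tet2 1455300_at, median centring gave 0.006 for Mbd1 1437061_at, and averaging per gene gave -0.065 for Dnmt1 and -0.089 for Uhrf1. Leaving out a mouse gave -0.037 to 0.046 for Dnmt1 1422946_a_at, -0.034 to 0.115 for Uhrf1 1415810_at, -0.082 to 0.309 for Tet1 1419896_at, -0.079 to 0.065 for Tet2 1455300_at and -0.061 to 0.016 for Mbd1 1437061_at. The differences of the 4 lower Dnmt3a probe sets stayed below 0 under every alternative run. The cause of these shifts was not tested. Without detection calls, signal and background cannot be separated for dim probe sets, such as those of Tet1, which lie near the array median, and the 3 dim ones of Mbd1.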
